A study of Homo sapiens with 8 samples.

Results

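BRCA1-null and BRCA1+ ovarian cancer cells were compared while both lines were held in entinostat, using 2 BRCA1-null and 2 BRCA1+ libraries, or 4 of the 8 libraries of the series. All named genes that passed a filter on low counts were members, 17714 of 25369. UWB1.289, a human ovarian cancer cell line that lacks functional BRCA1, is called BRCA1-null. Its derivative transduced with BRCA1 is called BRCA1+. Both lines received 0.5 uM entinostat for 24 h before poly(A) RNA sequencing, and the other 4 libraries were DMSO controls of the same 2 lines, also at 24 h. Because each genotype is represented by a single line, restored BRCA1 and any other difference that has accumulated between the 2 lines cannot be told apart. The labels do not say whether replicates came from separate cultures, so p-values measure only the spread between these samples, which may be technical.

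BRCA1 is a tumour suppressor that works in the repair of DNA breaks by homologous recombination and also takes part in transcription. The class I histone deacetylases HDAC1, HDAC2, HDAC3 and HDAC8 remove acetyl groups from histones, and all but HDAC8 act inside corepressor complexes such as SIN3, NuRD, CoREST and NCOR/SMRT. Entinostat is a benzamide inhibitor of class I enzymes, chiefly HDAC1 and HDAC3, and deacetylase inhibition raises histone acetylation and can release silenced genes. The comparison asks which differences between the lines are present during treatment with the inhibitor.

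Total counts ranged from 31900158 to 53549893 over the 8 libraries, and the shallowest was replicate 1 of BRCA1+ entinostat. Among the entinostat libraries, log2 CPM (counts relative to the scaled library size) correlated across genes at 0.9917 to 0.9923 between replicates and at 0.9597 to 0.9622 between the lines. Genes are not independent replicates, and these values are a description. The epithelial identity of the line was present in all 4 libraries, where the 6 epithelial markers summed to 11670 to 12430 CPM. The Mullerian markers PAX8, SOX17, MSLN and MUC16 were present, whereas EMX2 had at most 1 count, and WT1 and ESR1 at most 17 and 12. The fibroblast markers COL3A1, DCN and LUM, the T cell marker CD3D and the B cell marker MS4A1 had 0 counts in the 4 libraries.

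BRCA1 itself (chr17:41196312-41277500 on hg19, minus strand) was measured at 133 and 118 CPM in the BRCA1+ and at 17.6 and 19.2 CPM in the BRCA1-null libraries. The lines did not overlap, as the labels require. The log2 difference, given throughout as BRCA1-null minus BRCA1+ with its standard error, was -2.77 ± 0.0889 (adjusted p 1.78e-07 by the quasi-likelihood test of edgeR after Benjamini-Hochberg adjustment). Reads of the truncated endogenous transcript and of the introduced copy were counted together, so the remaining level in BRCA1-null cells cannot be read as functional message.

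All 4 class I deacetylase genes were called lower in BRCA1-null cells. HDAC3 (chr5:141000443-141016423), the catalytic subunit of the NCOR and SMRT complexes, was at 78.7 and 81.6 CPM in BRCA1+ and 45.9 and 46.3 CPM in BRCA1-null libraries, a log2 difference of -0.80 ± 0.0590 (adjusted p 1.44e-05). HDAC1 was at 291 and 312 against 219 and 224 CPM (-0.44 ± 0.0555, adjusted p 2.56e-04), and HDAC2, its close homologue, at 305 and 303 against 243 and 261 CPM (-0.27 ± 0.0574, adjusted p 0.00481). HDAC8, which acts outside these complexes, was called at -0.39 ± 0.119 (adjusted p 0.0277), and the call was lost without replicate 1 of BRCA1-null entinostat (adjusted p 0.178) or replicate 2 of BRCA1+ entinostat (adjusted p 0.219). For the first 3 enzymes the replicates lay closer to each other than to the other line. HDAC3 lies on chromosome 5, where most called genes were lower in BRCA1-null cells, as described with the chromosomes.

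A gene was called when its adjusted p was under 0.05. In entinostat 6973 genes were called, 39.4% of those tested. BRCA1-null cells had the higher level for 3632 (20.5%) and the lower level for 3341 (18.9%). Calls with an absolute log2 difference of at least 1 numbered 1863 (10.5%), 1170 higher and 693 lower, and those of at least 5 numbered 62 higher and 20 lower. The share of higher genes therefore rose with the size of the difference, from 52.1% of all calls to 75.6% of those of at least 5. In DMSO these shares were 50.1% and 77.5%. Calls of at least 5 include genes near 0 counts in one line, whose fitted values are no measure of size. The total fell whichever entinostat library was left out, and it was lowest without replicate 2 of BRCA1+ entinostat. Without replicate 2 of BRCA1+ entinostat, the deeper library of its group, 4529 genes were called, 2226 of them higher.

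**Figure D1:**
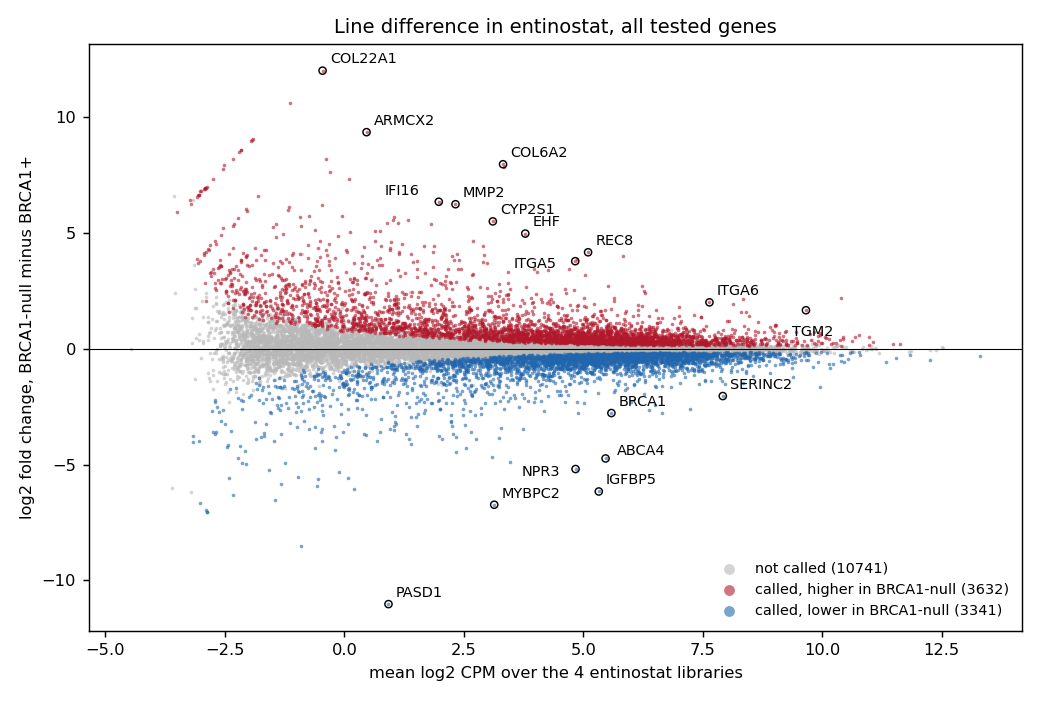
Each point is 1 of 17714 tested genes, placed by its mean log2 CPM over the 4 entinostat libraries (x) and its log2 fold change, BRCA1-null minus BRCA1+ (y). Red points are called genes above 0 (3632) and blue points called genes below 0 (3341), grey points were not called, and circles mark genes named in the text. Among calls of at least 5 on the log2 scale, 62 lie above 0 and 20 below, and the fitted values of genes near 0 counts in one line, on the left, are no measure of size.

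The genes most raised in BRCA1-null cells included collagen, integrin and claudin genes. Among genes that averaged at least 3 log2 CPM and whose lines did not overlap, the chains COL6A2 (chr21:47518033-47552763) and COL6A1 (chr21:47401663-47424963) of collagen VI, a microfibril of the pericellular matrix, came first. COL6A2 was at 0.757 and 0.496 CPM in BRCA1+ and at 156 and 146 CPM in BRCA1-null libraries, a log2 difference of 7.96 ± 0.123 (adjusted p 1.58e-09). COL6A1 was at 0.662 and 0.625 against 157 and 138 CPM, a log2 difference of 7.84 ± 0.180. These neighbouring genes on chromosome 21 were thus close to undetected in one line and well expressed in the other. COL6A3, whose product completes the usual collagen VI trimer, did not pass the filter.

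CYP2S1 (chr19:41699115-41713444), an extrahepatic cytochrome P450, was at 1.07 and 1.42 CPM in BRCA1+ and at 53.9 and 62.0 CPM in BRCA1-null libraries (5.50 ± 0.169, 45.2-fold). EHF, an epithelial ETS transcription factor on chromosome 11, was at 3.15 and 1.92 against 87.3 and 65.6 CPM (4.97 ± 0.272). REC8, the cohesin subunit that holds sister chromatids together in meiosis, was at 8.67 and 7.54 against 143 and 146 CPM (4.17 ± 0.103), and its position overlaps IPO4. These 3 genes were chosen among calls without overlap between the lines, and their adjusted p was 4.48e-08 to 3.10e-06 (edgeR). The next on the list were surface proteins. EFNB1, a ligand of Eph receptors, differed by 4.01 ± 0.161 (16.9 and 11.7 against 229.8 and 223 CPM) and the tetraspanin-like TM4SF1 by 3.89 ± 0.215 (9.08 and 6.49 against 128 and 97.6 CPM). ITGA5, the alpha chain of the fibronectin receptor, was 13.7-fold higher (8.20 and 7.20 against 95.4 and 115 CPM). The solute carrier SLC43A3 and the tight junction protein CLDN11 followed at 3.44 ± 0.129 and 3.43 ± 0.121.

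The genes most lowered in BRCA1-null cells were led by MYBPC2. MYBPC2 (chr19:50936160-50969583), a myosin-binding protein of fast skeletal muscle, was at 88.1 and 96.8 CPM in BRCA1+ and at 1.17 and 0.527 CPM in BRCA1-null libraries, a log2 difference of -6.73 ± 0.195 (adjusted p 1.08e-07). IGFBP5 (chr2:217536828-217560272), a secreted binding protein of insulin-like growth factors, was at 303 and 379.7 against 5.50 and 3.97 CPM (-6.16 ± 0.176, 71.5-fold lower). NPR3 (chr5:32710743-32791830), the clearance receptor for natriuretic peptides, was at 128 and 221 against 4.56 and 5.05 CPM (-5.19 ± 0.341). For NPR3 the BRCA1+ replicates themselves differed, but both lay far above the other line.

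KCNIP1, a modulator of potassium channels whose position overlaps KCNMB1, and ABCA4, a retinoid transporter known from photoreceptors, differed by -4.88 ± 0.302 and -4.74 ± 0.170. ABCA4 was at 231 and 233 CPM in BRCA1+ libraries and 10.9 and 6.37 CPM in BRCA1-null libraries. RUNX3, a transcription factor of the Runt family, was at 45.1 and 41.3 against 1.96 and 1.36 CPM (-4.68 ± 0.181). The non-muscle myosin MYH14 (-3.86 ± 0.181), the junction protein CLDN6 (-3.46 ± 0.249) and the endocytic adaptor SGIP1 (-3.44 ± 0.199) were also among the 10 leading lower genes. CLDN6 was at 45.1 and 47.5 CPM in BRCA1+ libraries, which lay close together, and at 5.69 and 2.56 CPM in BRCA1-null libraries, which did not. All 20 leading genes kept their call and direction under every alternative run.

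**Figure D2:**
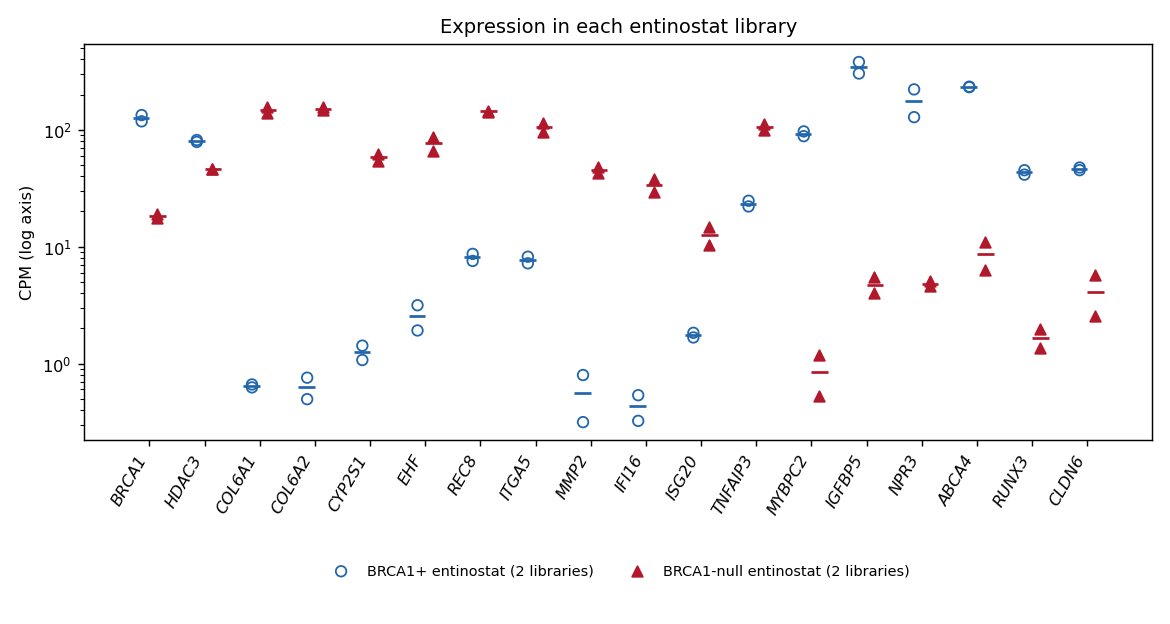
CPM on a log axis of 18 named genes in the 4 entinostat libraries, with open circles for the 2 BRCA1+ libraries, triangles for the 2 BRCA1-null libraries and short lines for the means of 2. For each gene shown, both libraries of one line lie above both of the other, a condition of the rules that named most of them.

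Genes of small p outside the 20 leading genes included ITGA6, TGM2, LAMA4 and SERINC2. ITGA6, the laminin receptor chain, was at 98.9 and 100.1 against 383 and 415 CPM (2.00 ± 0.0583, adjusted p 1.08e-07), TGM2, a transglutaminase that crosslinks matrix proteins, at 451 and 457 against 1395 and 1480 CPM (1.66 ± 0.0609), and LAMA4, a laminin chain, at 5.01 and 5.28 against 48.5 and 53.7 CPM (3.30 ± 0.0993). SERINC2, a member of a family of multipass membrane proteins, was lower, at 509 and 472 against 119.9 and 118 CPM (-2.04 ± 0.0686).

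Some genes were present in one line and at the counting floor of 3 reads in the other. With at most 3 counts in each library of the lower line and at least 1 CPM in each library of the other, 15 genes were detected in BRCA1-null and 7 in BRCA1+ cells. For these a lower bound of the observed ratio is given, computed from the mean CPM against the mean floor of the 2 libraries. It is not a confidence limit, since lower-line counts above 0 allow true levels above the floor. ARMCX2 (chrX:100910268-100914876), an armadillo-repeat gene on X, had 0 and 3 counts in BRCA1+ and 1313 and 1075 in BRCA1-null libraries, at least 337-fold higher. COL22A1, a collagen of tissue junctions, had 0 and 0 against 560 and 474 counts (at least 146-fold). EVC, a component of the Hedgehog pathway at the cilium, and TWIST2, a mesenchymal transcription factor, were both at least 103-fold higher. FOLR2, a folate receptor, was at least 56.0-fold higher.

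In the other direction, PASD1 (chrX:150732007-150845211), an X-linked cancer-testis antigen, had 1629 and 2512 counts in BRCA1+ and 1 and 1 in BRCA1-null libraries, at least 777-fold lower. The thyrotropin receptor TSHR was at least 38.4-fold lower and SMR3B at least 32.9-fold. Of these 15 and 7 genes, 11 and 6 were also at or under 3 counts in both DMSO libraries of the same line. Most were thus at the floor in both treatments.

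Among collagen and other matrix genes, more were higher than lower in BRCA1-null cells. Of 31 collagen genes tested, 17 were higher, 5 lower and 9 not called, 71.0% called against 39.4% of all genes, and the median log2 difference was 0.772 against 0.019. The median was 0.441 among those with at least 1 CPM in at least 2 libraries. All 6 tested fibrillar chains were higher, among them COL1A2 (1.06) and COL27A1 (2.16). The basement membrane chains COL4A1 and COL4A2, which form the main collagen IV trimer, had log2 differences of -0.06 and 0.04 and were not called. COL26A1 went the other way, at 23.8 and 26.7 CPM in BRCA1+ and 1.39 and 1.22 CPM in BRCA1-null libraries (-4.27 ± 0.147).

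Of 62 integrins, laminins, other matrix proteins and their proteases, 30 were higher, 11 lower and 21 not called, with a median of 0.603. In this list 66.1% were called, against 39.4% of all genes. Among integrins, the alpha chains ITGA3 (2.15), ITGA5 and ITGA6 and the beta chains ITGB4 (1.21) and ITGB6 (1.44) were higher. The beta chains ITGB2 (-1.01), ITGB3 (-1.40) and ITGB5 (-0.85) were lower, and ITGB1, the partner shared by most alpha chains, was not called (-0.08). LAMA3 and LAMB3, laminin chains of epithelial basement membranes, were both higher, by 1.01 and 1.40. LAMB3 was at 90.4 and 69.1 CPM in BRCA1+ and at 199 and 221 CPM in BRCA1-null libraries. LAMA1, an embryonic laminin chain, was lower (-1.94).

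MMP2, a gelatinase, was at 0.315 and 0.798 CPM in BRCA1+ and 48.0 and 43.0 CPM in BRCA1-null libraries (6.24 ± 0.189, adjusted p 1.31e-07). TIMP3, a matrix-bound inhibitor of metalloproteinases, was lower (-2.05 ± 0.256). Of 14 other matrix proteins, 3 were higher (SPARC, TGFBI and NID1) and 6 lower, among which NID2, the second nidogen of basement membranes, was at 229 and 198 against 44.0 and 23.8 CPM (-2.65 ± 0.343). Fibronectin, FN1, did not differ detectably (0.03 ± 0.135).

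Among mesenchymal genes more were higher than lower, and among epithelial genes more were lower than higher, with 28 of the 51 epithelial genes not called. Of 21 mesenchymal markers and regulators tested, 11 were higher, 3 lower and 7 not called (66.7% called against 39.4% of all genes). The median was 1.06 for the 8 regulators and 0.112 for the 13 markers. Over the 21 genes it was 0.91, and 0.68 among those with at least 1 CPM in at least 2 libraries. Without replicate 2 of BRCA1+ entinostat 8 were called in all. THY1, a surface glycoprotein, was at 1.48 and 1.03 against 24.4 and 17.3 CPM (4.10 ± 0.260), the cadherin CDH11 at 1.07 and 0.884 against 5.80 and 4.65 CPM (2.44 ± 0.236), and the hyaluronan receptor CD44 and the receptor kinase AXL were higher by 1.35 and 1.43. N-cadherin, CDH2, was lower (-0.27). ZEB1, a repressor of E-cadherin, was called at 1.65 ± 0.316, and its call was lost without replicate 2 of BRCA1+ entinostat. The summed level of the 9 fibroblast markers was 27.5 to 35.6 CPM in BRCA1+ and 58.3 to 84.1 CPM in BRCA1-null libraries, carried by COL1A1, COL1A2 and THY1, with COL3A1, DCN and LUM at 0. The 6 endothelial markers summed to 27.5 to 38.7 and 75.5 to 93.2 CPM, carried by CDH5. The part of these levels in the list's difference was not tested.

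Of 51 epithelial keratins, junction proteins and regulators, 7 were higher, 16 lower and 28 not called (45.1% called against 39.4% of all genes). The median was -0.235, or -0.136 without replicate 2 of BRCA1-null entinostat. Of the 26 junction proteins 11 were lower, 5 higher and 10 not called. E-cadherin, CDH1, was lower (-0.64), as were the tight junction proteins OCLN (-0.74) and CLDN1 (-0.56), the desmosomal DSP (-0.63) and the epithelial regulator GRHL1 (-0.88). KRT81 was at 18.8 and 16.6 against 1.75 and 1.84 CPM (-3.29 ± 0.151). The keratins KRT8 and KRT18 of simple epithelia were not called (0.06 and -0.07). The 7 higher members included the junction proteins EPCAM (0.21), CLDN3 (0.28) and CLDN12 (0.39), with EHF, above, and MUC1, a membrane mucin, at 26.8 and 10.2 against 66.9 and 60.3 CPM (1.84 ± 0.513). The MUC1 call was lost without replicate 1 of BRCA1-null or replicate 2 of BRCA1+ entinostat, and its deposited position overlaps SRGAP2D and FAM72C.

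**Figure D3:**
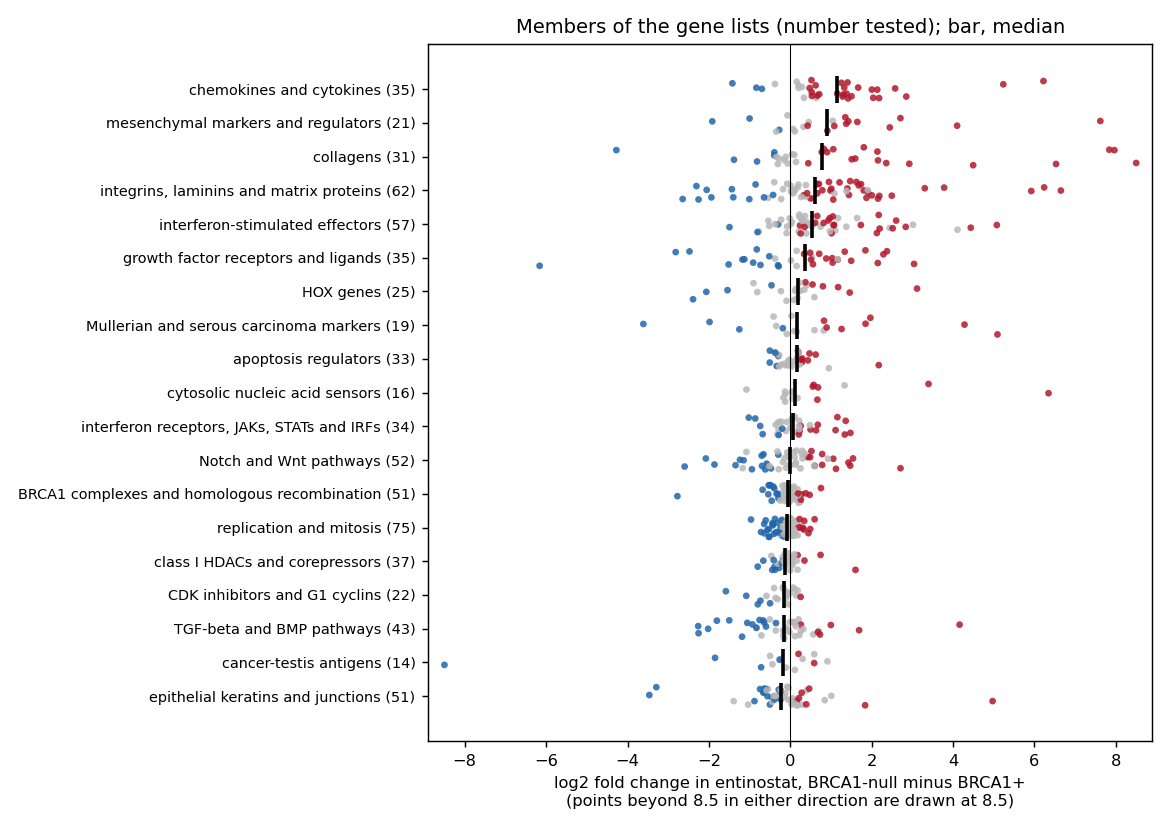
Log2 fold changes in entinostat, BRCA1-null minus BRCA1+, of the tested members of 19 gene lists (number tested in brackets). Red points were called higher, blue points called lower, grey points not called, and the black bar is the median. The median is 1.15 for chemokines and cytokines and -0.235 for epithelial keratins and junctions, and the order of the lists changed when single entinostat libraries were left out.

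Among inflammatory genes most were higher in BRCA1-null cells. Of 35 chemokines, cytokines and NF-kB genes tested, 25 were higher, 3 lower and 7 not called, with a median of 1.15. The share called was 80.0%, against 39.4% of all genes. The median was 0.719 without replicate 1 of BRCA1-null and 0.792 without replicate 2 of BRCA1+ entinostat, below that of the mesenchymal list in both cases (0.743 and 0.829). NF-kB is a dimeric factor held in the cytoplasm by inhibitor proteins, and several of its inhibitors are its own targets. Of 11 NF-kB units and feedback genes, 10 were higher and the last, REL, was not called (0.28). TNFAIP3, the feedback inhibitor A20, was at 24.7 and 22.1 CPM in BRCA1+ and 113 and 98.8 CPM in BRCA1-null libraries (2.18 ± 0.115, adjusted p 2.57e-06). BIRC3, an inhibitor of apoptosis downstream of NF-kB, was higher by 1.67, NFKBIZ by 1.42, RELB by 0.71 and RELA by 0.48.

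Among the ligands, CXCL5, a neutrophil attractant, was at 4.70 and 3.75 against 20.8 and 13.2 CPM (2.04 ± 0.353), and the membrane-bound chemokine CX3CL1 at 2.87 and 2.93 against 15.1 and 10.4 CPM (2.14 ± 0.249). IL1RN, the antagonist of the interleukin-1 receptor, had 0 and 6 counts in BRCA1+ and 330 and 198 in BRCA1-null libraries. IL1A and IL1B, the agonists of the same receptor, were higher by 2.00 ± 0.135 and 1.30 ± 0.348, and the myeloid growth factor CSF1 by 1.29 ± 0.196. CCL2 (-1.42 ± 0.206), IL18 (-0.83 ± 0.0749) and IL32 (-0.70 ± 0.0620) were the 3 lower members. The summed level of 12 immune cell markers was 10.8 CPM in BRCA1+ and 5.60 to 7.85 CPM in BRCA1-null libraries, mostly from PTPRC and CD14. CSF1R (3 and 4 against 21 and 22 counts) and CD8A (14 and 14 against 38 and 21 counts) went the other way. The part of these levels in the list's difference was not tested.

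Interferons signal through receptor-bound JAK kinases to STAT factors, which with IRF9 enter the nucleus and switch on antiviral genes. Of 34 tested receptors, kinases, STATs, IRFs and inhibitors, 11 were higher, 6 lower and 17 not called, with a median of 0.0699. Without replicate 2 of BRCA1+ entinostat 5 were called, and without replicate 1 or 2 of BRCA1-null entinostat 10 and 11. Of the 6 receptor chains, IFNAR2 (0.50) and IL10RB (0.68) were higher, while IFNGR1 (0.11) and IFNGR2 (0.06) were not called. The kinases JAK1 (-0.68) and JAK3 (-0.74) were lower, as were the inhibitors SOCS1 (-1.02) and SOCS2 (-0.86). STAT5A was at 15.7 and 12.6 against 31.8 and 28.7 CPM (1.11 ± 0.159). IRF7 and IRF9 were called at 1.48 ± 0.347 and 1.36 ± 0.287, and both calls were lost without replicate 2 of BRCA1+ entinostat, that of IRF7 also without replicate 1 of BRCA1-null entinostat.

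Of 16 tested sensors of cytosolic nucleic acid and their kinases, 6 were higher, 0 lower and 10 not called. Their share of calls, 37.5%, was near the 39.4% of all genes. IFI16, which binds DNA, was at 0.536 and 0.323 CPM in BRCA1+ and 37.6 and 29.5 CPM in BRCA1-null libraries (6.35 ± 0.368, adjusted p 4.37e-06). The deposited positions of SRGAP2D and FAM72C overlap both IFI16 and MUC1, so these entries span a long stretch of chromosome 1. DHX58, a regulator of RNA sensing, was at 0.158 and 0.216 against 2.37 and 1.70 CPM (3.40 ± 0.459), and TRIM25, the ligase that activates RIG-I, was higher by 0.68 ± 0.0572. The adaptor STING, listed as TMEM173, was higher by 0.58, and the adaptor MAVS was not called (-0.12). TREX1, the nuclease that clears cytosolic DNA, was called at 0.67 ± 0.180, and the call was lost without replicate 1 of either entinostat group.

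Interferon-stimulated effectors were uneven. Of 57 tested, 21 were higher, 3 lower and 33 not called, or 42.1% called against 39.4% of all genes, with a median of 0.529. IFI44 was at 1.04 and 0.410 CPM in BRCA1+ and 16.5 and 12.5 CPM in BRCA1-null libraries (4.43 ± 0.540), the exonuclease ISG20 at 1.67 and 1.83 against 14.8 and 10.3 CPM (2.84 ± 0.232), and the membrane restriction factor IFITM1 at 2.84 and 2.11 against 17.6 and 11.6 CPM (2.60 ± 0.417). OAS2, an enzyme that makes the activator of RNase L, was at 0.284 and 0.237 against 12.1 and 5.12 CPM (5.08, adjusted p 0.0234). For all 4 genes replicate 1 of BRCA1-null lay above replicate 2, and the OAS2 call was lost without either BRCA1+ library or without replicate 1 of BRCA1-null. The classical genes ISG15 (0.21), IFIT1 (0.53) and MX1 (3.02) were not called, and MX1 had 23 and 18 against 280 and 101 counts. GBP1, a guanylate-binding protein induced by IFN-gamma, was lower (-1.49 ± 0.220), as were BST2 (-0.30) and APOL2 (-0.81). The list depended on single libraries. Its count fell to 14 without either BRCA1+ entinostat library, and its median was 0.275 without replicate 1 and 0.805 without replicate 2 of BRCA1-null entinostat.

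The promoters of these effectors were read for the interferon-stimulated response element, searched as GAAANNGAAA on both strands, and for the STAT site, searched as TTCNNNGAA. RefSeq promoters of GRCh38.p14, from 250 bases before to 50 after the start site, were matched by symbol for 43 of the 57 genes. The first motif was found in 29 of the 43 (67.4%), against 2.75% of the promoters of 11745 tested genes and 3.65% of all 27305 promoters of this length. It was in 8 of 14 effectors called higher, in 2 of 2 called lower and in 19 of 27 not called. With 2 lower effectors, a relation to direction could not be assessed. Over all called genes it was found in 2.57% of those higher and in 2.16% of those lower in BRCA1-null cells. The STAT letters were in 12 of 43 effectors (27.9%), against 6.39% of tested genes. The stretches around the first motif are shown for 5 effectors that were higher and for GBP1, which was lower, so that their letters can be compared. Each is written 5′ to 3′ along the gene, with the motif in capitals, with its reverse complement where it lies on the other strand.
IFI44 (chr1:78649731-78649788, plus strand): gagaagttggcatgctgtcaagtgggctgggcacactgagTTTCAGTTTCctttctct
ISG20 (chr15:88638907-88638996, plus strand): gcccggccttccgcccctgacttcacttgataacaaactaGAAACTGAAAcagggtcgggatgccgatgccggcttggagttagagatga
IFITM1 (chr11:313960-314043, plus strand): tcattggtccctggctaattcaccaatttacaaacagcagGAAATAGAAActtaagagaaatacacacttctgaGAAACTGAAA
IFITM3 (chr11:320861-320952, minus strand): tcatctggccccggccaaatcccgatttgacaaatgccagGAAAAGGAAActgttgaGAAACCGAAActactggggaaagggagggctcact
DDX60 (chr4:168318756-168318880, minus strand): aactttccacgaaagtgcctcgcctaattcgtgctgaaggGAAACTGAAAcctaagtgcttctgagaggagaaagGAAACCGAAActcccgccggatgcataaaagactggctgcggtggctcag
GBP1 (chr1:89065286-89065375, minus strand): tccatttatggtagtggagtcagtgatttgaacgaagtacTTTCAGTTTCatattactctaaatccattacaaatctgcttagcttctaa

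IFI44 and GBP1 hold the same 10 capital letters, yet IFI44 was 21.6-fold higher and GBP1 2.82-fold lower in BRCA1-null cells. IFITM1 and IFITM3, neighbours on chromosome 11, each hold 2 motifs and were higher by 2.60 and 0.66. A match describes letters and is no evidence of binding.

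Growth factor receptors and ligands were called often in both directions. Of 35 tested, 16 were higher, 12 lower and 7 not called (80.0% called against 39.4% of all genes). The median was 0.35, or 0.529 without replicate 2 of BRCA1+ entinostat. Ligands of the EGF receptor were higher, namely AREG (2.38), EREG (2.15), EGF (1.85) and TGFA (0.56), while EGFR was not called (0.16) and ERBB2 (-0.29) and ERBB3 (-0.30) were lower. VEGFC, a lymphatic growth factor, was at 0.505 and 0.410 against 3.69 and 3.74 CPM (3.04 ± 0.294). The insulin receptor INSR was at 8.26 and 7.16 against 1.32 and 0.814 CPM (-2.82 ± 0.227), and the receptor kinase KIT was 5.57-fold lower. FGFR2, FGFR3 and FGFR4 were lower (-1.18, -0.91 and -1.13) and FGFR1 was higher (0.51).

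Of 43 TGF-beta and BMP genes, 6 were higher, 14 lower and 23 not called (46.5% called against 39.4% of all genes), with a median of -0.15, or -0.235 without replicate 1 of BRCA1-null entinostat. INHBA, the subunit of activin A, was at 0.442 and 0.539 against 8.72 and 9.24 CPM (4.16 ± 0.205), whereas the ligand TGFB2 was at 22.2 and 25.7 against 6.19 and 3.74 CPM (-2.26 ± 0.198). The receptors TGFBR2 (-0.93), TGFBR3 (-1.06) and BMPR2 (-0.76) were lower, SMAD3 was higher (1.69) and the inhibitory SMAD6 lower (-1.80). ID3 and ID4, targets of BMP signalling, differed by -2.25 ± 0.368 and -2.02 ± 0.211. In the Notch and Wnt pathways 12 of 52 genes were higher, 14 lower and 26 not called, so 26 of 52 were called against 39.4% of all genes, with a median of -0.0157. Without replicate 2 of BRCA1+ entinostat 17 were called. The Wnt antagonist DKK1 was at 24.9 and 33.6 against 195 and 191 CPM (2.71 ± 0.147). WNT7A was higher (1.47 ± 0.139), WNT5A (-1.35) and WNT5B (-1.86 ± 0.265) were lower, and so were NOTCH3 (-0.94) and its target HES1 (-0.70).

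The list of BRCA1, its partners and homologous recombination genes had a share of calls near that of all genes. Of 51 tested, BRCA1 included, 7 were higher, 12 lower and 32 not called (37.3% called against 39.4%), with a median of -0.0458, and 12 were called without replicate 2 of BRCA1+ entinostat. BRCA1 was the single member called at an absolute log2 difference of at least 1. BARD1, the obligate partner of BRCA1, was lower (-0.53 ± 0.0913), as were RAD54L, a DNA translocase of homologous recombination (72.3 and 62.2 against 43.4 and 40.2 CPM, -0.68 ± 0.113) and FANCD2 of the Fanconi anaemia pathway (-0.54 ± 0.0610). RMI1, of the BLM dissolvasome, was higher (13.7 and 13.2 against 23.1 and 22.1 CPM, 0.75). PALB2 (0.07) and BRCA2 (0.05), which act with BRCA1 in the same pathway, were not called.

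Among 37 class I deacetylases and corepressor subunits, 4 were higher, 10 lower and 23 not called. This share of calls, 37.8%, was near the 39.4% of all genes. The subunits of NCOR and SMRT, HDAC3 apart, did not include a call. In CoREST 5 of 7 subunits were called, with RCOR2 at 4.23 and 4.46 against 13.0 and 13.5 CPM (1.60 ± 0.125), ZMYM2 also higher (0.74), and RCOR1 (-0.37), RCOR3 (-0.66 ± 0.120) and HMG20B (-0.41) lower. Of the enzymes' partners in SIN3, SUDS3 (-0.26) and RBBP4 (-0.20) were lower. Without replicate 1 of BRCA1+ entinostat 8 genes of this list were called.

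Replication and mitosis genes had a share of calls near that of all genes, with small differences. Of 75 replication and mitosis genes, 10 were higher, 22 lower and 43 not called (42.7% called against 39.4%), with a median of -0.074 and none called at an absolute log2 difference of 1. ORC1, of the origin recognition complex, was at 48.5 and 46.5 against 29.4 and 28.3 CPM (-0.72 ± 0.0710), GINS1 of the replicative helicase at 55.8 and 56.2 against 36.3 and 35.5 CPM (-0.64 ± 0.0632) and the mitotic phosphatase CDC25C at 20.2 and 23.4 against 11.3 and 11.1 CPM (-0.97 ± 0.112). MKI67 (-0.09) and PCNA (-0.16) were not called. Of 22 CDK inhibitors, G1 cyclins and related genes, 1 was higher, 5 lower and 16 not called (27.3% called against 39.4%). CCND3 (-1.08 ± 0.102) and E2F2 (-1.58 ± 0.158), and the inhibitors CDKN2B (-0.80 ± 0.114) and CDKN2C (-0.73 ± 0.143), were lower. CDKN1A, the p21 gene that deacetylase inhibitors are known to induce, was at 13.7 and 12.4 against 11.6 and 7.95 CPM and was not called (-0.40 ± 0.179).

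The same lines were compared in DMSO to place these differences. In DMSO 7472 genes were called (42.2%), with BRCA1-null cells above BRCA1+ cells for 3745 (21.1%) and below for 3727 (21.0%). Calls in both treatments were made for 5700 genes, 81.7% of the entinostat calls and 76.3% of the DMSO calls, from different libraries that share one estimate of spread. Of the 1273 genes called in entinostat and not in DMSO, 1204 (94.6%) had the same sign in DMSO, with a median absolute log2 difference of 0.439 in entinostat and 0.209 in DMSO. Whether the line difference itself changed with treatment was tested as the interaction. It was called for 0 genes (0.0%), with 827 genes at an unadjusted p under 0.05 where 5% of the tests is 885.7. That number was 1505 with the replicate numbers as a block and 533 to 1162 with 1 library left out, the highest without replicate 1 of BRCA1-null DMSO. The DESeq2 Wald test called 11 and the edgeR likelihood ratio test 18. By the quasi-likelihood test, a call in one treatment alone does not show that the treatments differed.

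The 5 genes of smallest interaction p, again among those averaging at least 3 log2 CPM, all had smaller line differences in entinostat. VIM, the mesenchymal intermediate filament vimentin, was at 107 and 114 against 298 and 273 CPM and differed by 1.37 ± 0.0734 in entinostat and by 2.02 ± 0.0765 in DMSO (interaction p 1.39e-04, adjusted 0.660, edgeR). VIM-AS1 differed by 1.30 and 1.93, and because it overlaps VIM and the use of strand in counting is not stated, their reads cannot be told apart. The calcium-activated potassium channel KCNN4 differed by 2.04 ± 0.0827 in entinostat and 2.90 ± 0.101 in DMSO, the dynamin DNM1 by 0.79 and 1.37, and the vitamin D receptor VDR by 0.30 ± 0.0644 and 0.84 ± 0.0646. BRCA1 went the other way, with a line difference of -2.77 ± 0.0889 in entinostat and -2.14 ± 0.0862 in DMSO (interaction p 5.27e-04, adjusted 0.967). No adjusted interaction p of these genes passed 0.05.

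Over the 10486 genes averaging at least 3 log2 CPM, the SD of the log2 line difference was 0.526 in entinostat and 0.551 in DMSO. Of the 627 of these that differed by at least 1 in either treatment, 407 had the smaller absolute difference in entinostat and 220 the larger. CYP2S1 differed by 5.50 ± 0.169 in entinostat and 6.81 ± 0.189 in DMSO, RUNX3 by -4.68 ± 0.181 and -5.56 ± 0.187, and BIK, a pro-apoptotic BCL2 family member, by 2.17 ± 0.165 and 3.32 ± 0.189. COL6A2 was among those with the larger value in entinostat (7.96 ± 0.123 and 7.66 ± 0.118). These counts are descriptions, as no test of the spread was made.

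**Figure D4:**
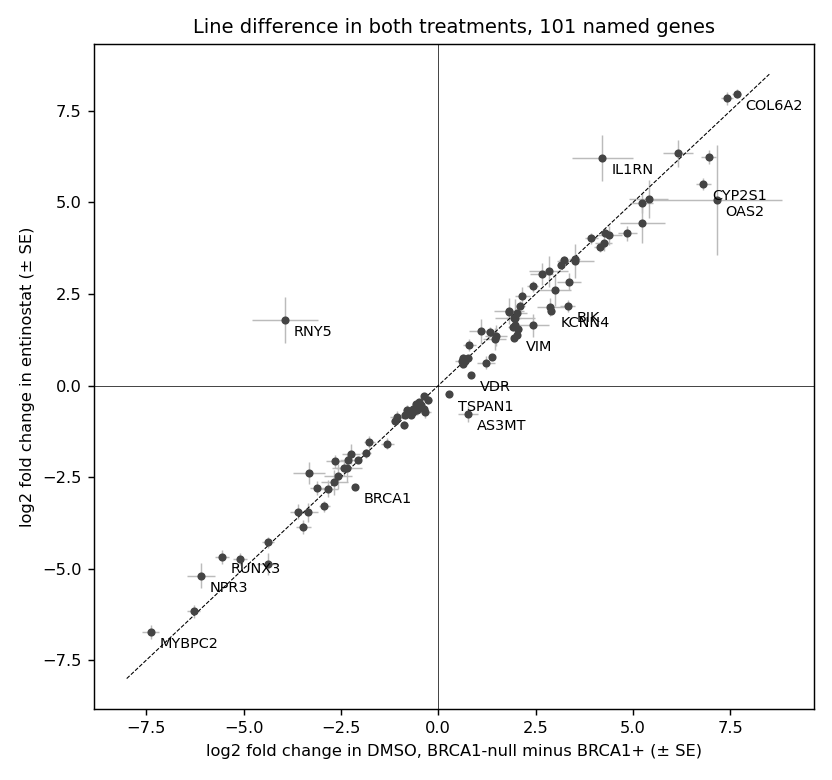
Log2 line difference, BRCA1-null minus BRCA1+, in DMSO (x) and in entinostat (y) for 101 genes of the naming rule that were not at the counting floor in one line, with bars of 1 SE and a dashed line of equal values. Most points lie near the dashed line, and TSPAN1, AS3MT and RNY5 are the 3 with opposite signs.

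Line differences were also grouped along the chromosomes. Tested genes were taken in order of position in 354 windows of about 50, and the median log2 difference in entinostat was above 0.5 in 9 windows and below -0.5 in 11. Of the 11, 8 lay on chromosome 5, between 77654588 and 180699308, with medians from -0.609 to -0.533, and 3 on chromosome 9, between 14511 and 35754274. In the same windows the DMSO medians were -0.731 to -0.529 on chromosome 5 and -0.593 to -0.525 on chromosome 9. On all of chromosome 5, BRCA1-null cells had 455 of 822 tested genes (55.4%) lower and 81 (9.85%) higher. Over all tested genes 18.9% were lower and 20.5% higher. HDAC3 and the leading lower genes NPR3 and KCNIP1 lie on this chromosome, and KCNIP1 and CDC25C inside the lowered windows. The windows up to 55008163 were not lowered in this way, with medians of 0.263, -0.0677 and 0.212. NPR3 lies in the window at -0.0677.

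The 9 higher windows lay on chromosomes 7, 12, 15, 17, 21 and X. The highest median, 0.833, belonged to a window on X that starts at 78615881 and holds ARMCX2, and 2 windows on chromosome 17 between 46210802 and 57284070 hold TRIM25, HOXB9 and SPAG9. COL6A1 and COL6A2 lie outside the higher window of chromosome 21. In all, 7 of the 111 genes named by rule lay in the 20 windows. Copy number was not measured, and its part in these differences was not tested.

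**Figure D5:**
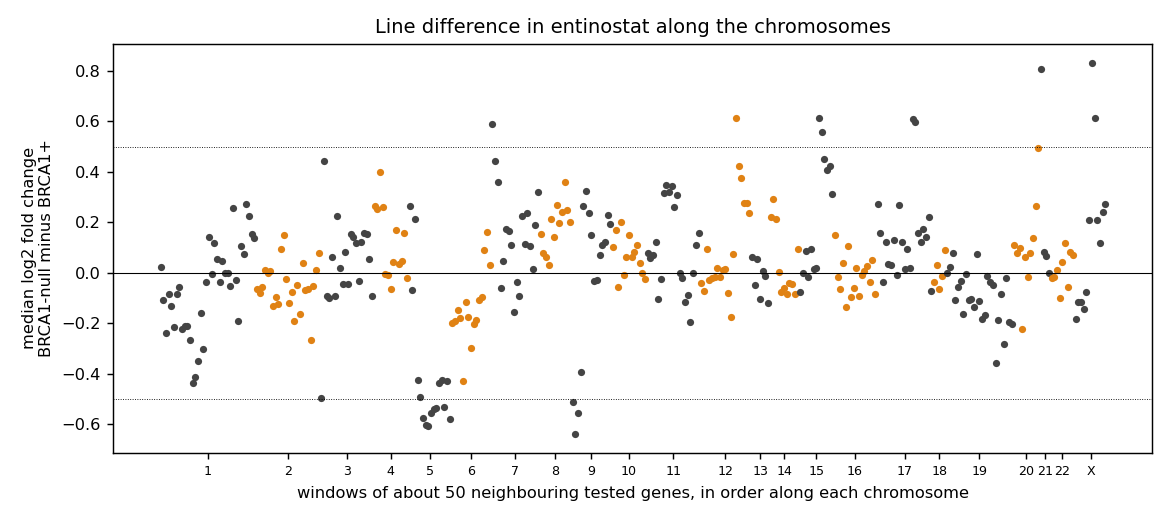
Median log2 fold change in entinostat, BRCA1-null minus BRCA1+, in each of 354 windows of about 50 neighbouring tested genes, in order along chromosomes 1 to 22 and X, with dotted lines at 0.5 and -0.5. Chromosome 5 is low over most of its length, and the highest window, at 0.833, is on X.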

How the data were processed

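Poly(A) RNA was sequenced in 8 libraries, and the authors deposited raw read counts per gene symbol, made with TopHat alignment to hg19 per the labels and counted with NGSUtils, without normalisation. How counting used strand was not given in the sources used here. Groups came from the labels. Genes were kept by filterByExpr (17714 of 25369 named genes, and 1 unnamed entry held 0 counts). The 292 genes off the main chromosomes had 0 counts. Library sizes were scaled by TMM, and all 8 libraries entered 1 quasi-likelihood fit of edgeR 4.0.16 in R 4.3.3, giving each group its own mean and leaving 4 residual degrees of freedom. Tests were two-sided with Benjamini-Hochberg adjustment at 0.05. CPM were computed from effective library sizes, and 3 counts, the limit that a count of 0 allows, corresponded to 0.0640 to 0.0946 CPM in the entinostat libraries, for counting error only. The fit was tested on simulated data.

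The members, gene lists and rules were chosen with earlier results of these data known, and the lists were compiled from general knowledge. Genes named by rule were BRCA1 and the class I deacetylases, the 10 largest differences in each direction among calls averaging at least 3 log2 CPM without overlap, up to 4 called members per list, the 5 leading floor genes in each direction, the 5 of smallest interaction p, genes called in opposite directions, and the 5 of smallest p not otherwise named. Some genes that these rules name are not reported here. Other list members were chosen after their values were seen. Alternatives were other size factors, filters and thresholds, DESeq2 1.42.0, other edgeR tests, thinned counts, a replicate block and the omission of each library. Promoters came from RefSeq.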

Additional observations from a re-analysis of the deposited data

Results flagged for a closer look

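The genes TSPAN1, AS3MT and RNY5 were called in both treatments with opposite directions. The difference between the treatments was tested for each as the interaction of line and entinostat with edgeR, and none passed after adjustment. TSPAN1, a tetraspanin, was at 37.4 and 42.4 CPM in BRCA1+ and 34.4 and 33.4 CPM in BRCA1-null libraries in entinostat, with a log2 difference of -0.24 ± 0.0813 there and 0.26 ± 0.0888 in DMSO. Its interaction, the line difference in entinostat minus that in DMSO, was -0.50 (adjusted p 0.967). AS3MT, an arsenic methyltransferase whose position overlaps the readthrough gene C10orf32-ASMT, differed by -0.78 ± 0.226 in entinostat and 0.76 ± 0.247 in DMSO, an interaction of -1.54 (adjusted p 0.967). RNY5, a small cytoplasmic Y RNA, had 4 and 4 counts in BRCA1+ and 14 and 18 in BRCA1-null libraries in entinostat and differed by 1.79 ± 0.631 there and -3.94 ± 0.846 in DMSO, an interaction of 5.73 (adjusted p 0.660). The position of RNY5 overlaps PLEKHA8P1. Under up to 20 alternatives the entinostat call was lost in 12 for TSPAN1, 5 for AS3MT and 9 for RNY5.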

How the results depend on the processing

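With 2 libraries in a group, single libraries set much of the precision. Leaving out 1 library at a time, with a lone library assumed to vary like the other groups, gave 4529 to 6917 calls between the lines in entinostat (2226 to 3603 higher, 2303 to 3407 lower) and 5309 to 7387 in DMSO (2485 to 3700 higher, 2734 to 3688 lower). The lowest entinostat count came without replicate 2 of BRCA1+ entinostat, and the lowest count of higher genes in DMSO without replicate 2 of BRCA1+ DMSO. The highest counts in each treatment came from leaving out a library of the other treatment. Requiring an absolute log2 difference of at least 1 left 1863 calls in entinostat (1170 higher, 693 lower) and 2204 in DMSO (1499 higher, 705 lower), because it is a second threshold. Other settings gave 6097 to 8394 calls in entinostat, and 49.4% to 52.5% of them were higher. The interaction had 0 calls by the quasi-likelihood test, 11 by the DESeq2 Wald test and 18 by the edgeR likelihood ratio test. Allowing at most 10 counts in the lower line raised the genes at the floor to 58 higher and 20 lower, since more genes could enter. Windows of 100 genes left 3 above 0.5 and 6 below -0.5, of 176. Of the 111 named genes, 97 kept call and direction under every alternative but the fold threshold, and none was reversed.

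The replicate numbers were used as a block in an alternative. The labels tie no number to a shared batch, and 2 replicates a group are too few to establish pairing. Deviations of same-numbered libraries from their group means correlated, over the 6 pairs of groups, at 0.0523 to 0.287 across all genes and at 0.234 to 0.718 among genes averaging at least 3 log2 CPM, lowest between the lines and highest between the treatments of a line. With the block 8394 genes were called in entinostat, 6968 of them among the 6973, and the interaction was called for 1 gene, with 1505 at an unadjusted p under 0.05 in place of 827. With the block 11 CDK inhibitor and G1 cyclin genes were called in place of 6.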

Other observations

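HOX genes, which specify position along the body axis, had a share of calls near that of all genes. Of 25 tested, 6 were higher, 4 lower and 15 not called in BRCA1-null cells in entinostat, so 10 of 25 were called against 39.4% of all genes, with a median log2 difference of 0.178. None of the 9 HOXC genes passed the filter on low counts. HOXB9 was at 0.158 and 0.410 CPM in BRCA1+ and 2.11 and 3.30 CPM in BRCA1-null libraries (3.11 ± 0.419), whereas the posterior genes HOXA9 (10.2 and 9.40 against 3.56 and 3.09 CPM, -1.54 ± 0.163), HOXD10 (-2.39 ± 0.292) and HOXD11 (-2.06 ± 0.179) were lower. Of 19 Mullerian and serous carcinoma markers, 7 were higher, 4 lower and 8 not called, with a median of 0.162. Calls made up 57.9% of this list, against 39.4% of all genes. Without replicate 1 of BRCA1+ entinostat 6 were called, and without replicate 2 of BRCA1+ or replicate 1 of BRCA1-null entinostat 7. Leaving out a BRCA1-null entinostat library moved the median to 0.0348 (replicate 1) or 0.277 (replicate 2), and it was 0.82 among members with at least 1 CPM in at least 2 libraries. The lineage factors PAX8 (-0.09) and SOX17 (0.10) were not called. LHX1 was at 0.221 and 0.302 against 7.29 and 11.3 CPM (5.09 ± 0.511), GATA6 at 1.96 and 1.51 against 7.06 and 6.18 CPM (1.97 ± 0.244) and GATA4 at 2.96 and 2.07 against 8.21 and 9.46 CPM (1.85 ± 0.194). MECOM was called at 1.26 ± 0.301, and its call was lost without replicate 1 of BRCA1+ or replicate 2 of BRCA1-null entinostat.

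Cancer-testis antigens mostly fell below the filter on low counts, as 14 of 39 passed it, with 2 higher, 4 lower and 8 not called. Of the 14, 42.9% were called, near the 39.4% of all genes. Apart from PASD1, the RNA helicase DDX43 was at 28.1 and 31.8 against 7.53 and 9.22 CPM (-1.85 ± 0.129) and TEX15 was called at -0.72 ± 0.154, a call lost without replicate 2 of BRCA1+ entinostat. Of 33 apoptosis regulators, 8 were higher, 5 lower and 20 not called, or 39.4% called, the share over all genes, with a median of 0.157. Without replicate 1 of BRCA1+ entinostat 7 were called, and leaving out replicate 2 of either group moved the median to 0.0433 (BRCA1+) or 0.0332 (BRCA1-null). BIK was at 3.09 and 2.87 against 14.1 and 12.6 CPM (2.17 ± 0.165) and was the single member called with an absolute log2 difference of at least 1. The death ligand TNFSF10 (0.62 ± 0.179) lost its call without either BRCA1+ entinostat library or replicate 1 of BRCA1-null entinostat, and its receptor TNFRSF10B was higher by 0.43. The death receptor FAS, whose position overlaps ACTA2, was lower (-0.50 ± 0.0935).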
